A study of Rattus norvegicus with 6 samples.

Results

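Interferon-induced antiviral effectors are proteins that cells make after an interferon signal and that block steps of virus replication. The set examined here was given as 10 rat genes, Ifit1, Ifit2, Ifit3, Isg15, Usp18, Rsad2, Oas1a, Oasl, Bst2 and Ifi27. Members were found by their symbol among the 30560 genes of the deposited expression table. A row was found for 9 of the 10, and Ifit1 had no row under that symbol and was not analysed here. Of those 9, Isg15 was listed at 0 in every library, and the other 8 averaged at least 1 FPKM, that is, fragments scaled to gene length and to library total, and were tested.

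The libraries came from primary ventricular fibroblasts of newborn Sprague-Dawley rats aged 1 to 2 days, isolated by preferential attachment and held overnight without serum. In the antagomiR group, 3 cultures were transfected with 50 nM of an antagomiR against miR-142-3p, a modified antisense oligonucleotide that binds the mature microRNA. In the NC group, 3 cultures were transfected in the same way with 50 nM of a negative control oligonucleotide. All 6 libraries thus share the serum withdrawal and the lipid transfection, and no untransfected library was analysed here. The labels do not say whether replicates came from separate isolations, and each p-value therefore reflects the spread among libraries alone, which may be technical.

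Interferons bind receptors at the cell surface, and receptor-bound kinases, among them JAK1, JAK2 and TYK2, activate STAT transcription factors. A complex that contains STAT2 and IRF9 binds the interferon-stimulated response element (ISRE) in promoters of target genes, whereas STAT dimers bind the gamma-activated site (GAS). Fibroblasts carry these receptors and are a classical cell type for the study of the response, and macrophages respond as well.

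The microRNA that the antagomiR targets is shown first, since it defines the treatment. The mature rno-miR-142-3p of RefSeq (GRCr8, chr10:73055155-73055177, plus strand) is given with its seed, bases 2 to 8, in capitals.
rno-miR-142-3p: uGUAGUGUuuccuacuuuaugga

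Promoter windows of members are shown next, because the set is defined by interferon induction and its tested members had higher values in every antagomiR library than in any NC library. RefSeq promoter sequences (GRCr8, 250 bases before to 50 bases after the gene start) were matched by symbol for 6 of the 10 members, Ifit3, Rsad2, Oas1a, Oasl, Bst2 and Ifi27. The ISRE core, which is GAAA, any 2 bases and again GAAA, was searched on both strands, with overlapping matches allowed. It occurred in 5 of these 6 promoters, against 3.92% of all 33469 promoters of the same length and 54.8% of 31 promoters from a list of other interferon-induced antiviral genes. Windows are printed 5′ to 3′ on the gene's strand with the core in capitals, and each ends before the gene start.
Ifit3: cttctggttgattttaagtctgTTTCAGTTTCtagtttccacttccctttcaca
Rsad2: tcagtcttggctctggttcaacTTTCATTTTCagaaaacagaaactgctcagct
Oas1a: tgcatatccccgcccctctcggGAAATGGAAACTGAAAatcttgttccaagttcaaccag
Bst2: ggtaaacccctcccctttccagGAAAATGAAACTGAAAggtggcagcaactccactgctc
Ifi27: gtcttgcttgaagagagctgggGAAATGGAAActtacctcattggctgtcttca

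These windows lie at chr1:241527260-241527313 (plus strand) for Ifit3, chr6:48788236-48788289 (minus strand) for Rsad2 and chr12:41330403-41330462 (plus strand) for Oas1a. Those of Bst2 and Ifi27 lie at chr16:18255061-18255120 (minus strand) and chr6:128355206-128355259 (plus strand). In Oas1a and Bst2, 2 overlapping cores span bases 41 to 26 and 131 to 116 before the start. In Ifit3 and Rsad2 the core lies on the opposite strand, at bases 44 to 35 and 147 to 138 before the start. Ifi27 has a second core at bases 169 to 160, outside the window printed. Oasl has no match to these letters in its promoter window. The GAS core TTCNNNGAA was found in 2 of the 6 promoters, Oas1a and Bst2, against 8.87% of all promoters, and in Bst2 it overlaps the ISRE core by 3 bases. A match of letters describes the sequence and does not show that a factor binds there.

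Most members were higher with the antagomiR than with NC, by a margin that depended on the NC library. Against NC replicate 3 alone, the antagomiR mean ran from 1.17 times as high for Ifi27 to 7.69 times for Rsad2. By limma on log2(FPKM + 1), with Benjamini-Hochberg adjustment over the 12024 genes that averaged 1 FPKM or more, 7 of the 10 named members rose at an adjusted p under 0.05 and 0 fell. Over all tested genes 17.5% rose and 9.21% fell. The groups did not overlap, with every antagomiR library above every NC library, for 8 of the 10 members and for 29.2% of tested genes. Ifit3, Oasl and Rsad2 averaged under 1 FPKM in NC and passed the filter only through their antagomiR values, so these counts do not measure how often such genes rise. Under median-ratio scaling 51.5% of called genes were risen ones and under quantile normalization 43.1%, against 65.6% with FPKM as deposited. That normalization moved the all-gene median on the log2 scale by -0.11.

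**Figure D1:**
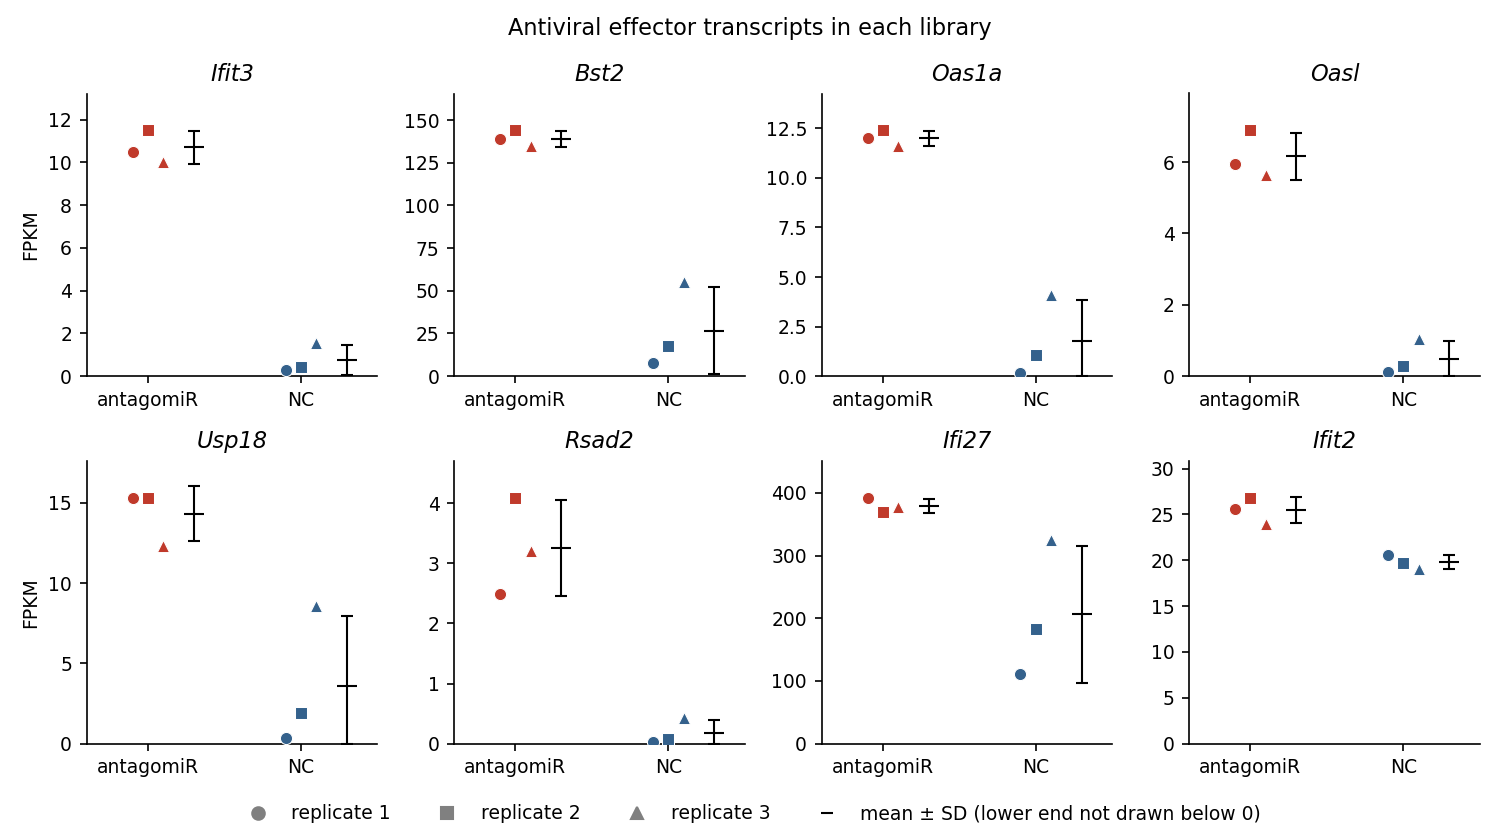
FPKM of the 8 tested members in each library, with antagomiR libraries in red and NC libraries in blue, one marker shape per replicate number and the mean ± SD (n = 3) beside them. Every antagomiR point lies above every NC point of its gene, and NC replicate 3 is the highest NC point for 7 of the 8 genes, all but Ifit2.

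Of the IFIT proteins, IFIT1 binds viral RNA that lacks the marks of host messenger RNA, and the genes of the family sit in one cluster. Ifit3 (ENSRNOG00000022839, chr1:232114166-232119307 in mRatBN7.2), whose human product binds and stabilises IFIT1, had 10.5, 11.5 and 10.01 FPKM in antagomiR replicates 1, 2 and 3, against 0.302, 0.425 and 1.57 FPKM in NC replicates 1, 2 and 3. The antagomiR values were close together, while NC replicate 3 stood above the other two. The group means were 10.7 ± 0.773 FPKM with the antagomiR and 0.766 ± 0.699 FPKM with NC (SD, n = 3 each), a ratio of 13.9. On the log2 scale the fold change was 2.79 ± 0.24 (SE; limma adjusted p = 0.000347), and 0.391% of tested genes had a larger one. The NC values rest on 12, 21 and 63 fragments, so their relative order is less precise than that of the antagomiR values, from 475, 578 and 466 fragments.

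Ifit2 (ENSRNOG00000036604, chr1:232102570-232108635), its neighbour on the chromosome, has a product linked to apoptosis and to control of viral translation. It had 25.6, 26.8 and 24.0 FPKM in the antagomiR replicates, against 20.6, 19.7 and 19.0 FPKM in the NC replicates. Here all libraries were well above the floor of detection, and the groups lay close to each other without overlap. The mean was 25.5 ± 1.41 FPKM with the antagomiR and 19.8 ± 0.807 FPKM with NC, a ratio of 1.29. Its log2 fold change of 0.35 ± 0.061 (SE; limma adjusted p = 0.00623) was the smallest of the tested members and was exceeded by 14.1% of tested genes. The ratio of Ifit3 to Ifit2 FPKM was 0.409, 0.43 and 0.417 in the antagomiR replicates, against 0.0147, 0.0216 and 0.0825 in the NC replicates. In every library Ifit2 was thus the more abundant of the pair per length, and by a much wider margin in NC.

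The same stretch of chromosome 1 holds Ifit1bl and a gene without a symbol in the table, ENSRNOG00000019050, both singled out after their values were seen. Ifit1bl was at 1.13, 1.09 and 0.937 FPKM with the antagomiR, against 1.49, 1.02 and 0.917 FPKM with NC, and was not called (log2 fold change -0.05, limma adjusted p = 0.797). Its groups overlapped. The gene without a symbol lies inside the span of Ifit1bl, from 232127170 to 232154435, and was at 3.43, 4.03 and 3.35 FPKM with the antagomiR, against 0.065, 0.298 and 1.18 FPKM with NC. It rose by 1.67 on the log2 scale (limma adjusted p = 0.00328). Only the spans were compared, and whether the exons of these genes overlap was not examined. Where they do, reads may not be told apart, and the strand setting is not given in the sources used here.

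ISG15 is a ubiquitin-like protein that is attached to other proteins, and USP18 is the protease that removes it and also dampens signalling at the type I interferon receptor. Isg15 (ENSRNOG00000069527, chr5:166784148-166785435) was listed at 0 in all 6 libraries. Its whole span lies within that of Agrn, from 166749310 to 166786003, which was at 13.1, 13.8 and 13.4 FPKM with the antagomiR and 10.1, 10.2 and 9.77 FPKM with NC. Of 95 rows for ribosomal protein genes, 10 were under 1 FPKM in every library and 3 of these were at 0. Whether these low rows are silent gene copies was not examined, so they do not settle what a listed 0 means. The listed 0 is not read here as the level of Isg15 in these cells, and the part of the overlap with Agrn in it was not tested.

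Usp18 (ENSRNOG00000037198, chr4:154471592-154499144) had 15.3, 15.3 and 12.3 FPKM in the antagomiR replicates, against 0.377, 1.93 and 8.57 FPKM in the NC replicates. The NC libraries spread widely, from 13 fragments in replicate 1 to 299 in replicate 3, and the lowest antagomiR value was 1.44 times the highest NC value. The mean was 14.3 ± 1.71 FPKM with the antagomiR and 3.62 ± 4.35 FPKM with NC (SD, n = 3 each). Its log2 fold change was 2.17 ± 0.62 (SE; limma adjusted p = 0.0396). Usp18 was no longer called when NC replicate 1 or 2 was left out (log2 fold change 1.53 and 2.07, adjusted p = 0.0602 and 0.117). Leaving out antagomiR replicate 1, 2 or 3 also ended the call (2.13, 2.13 and 2.27, adjusted p = 0.115, 0.113 and 0.096). It was still called when NC replicate 3 was left out, at 2.92 (adjusted p = 0.000215). It was lost in 9 of 16 alternative fits in all, over which the adjusted p ran from 0.000215 to 0.117.

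The enzymes that make ISG15 conjugates were described from a separate list. Of its 6 symbols 4 were tested, 3 rose and 0 fell, where 17.5% of all tested genes rose and 9.21% fell. The list's median on the log2 scale was 1.30, against 0.06 over all tested genes. Uba7, the activating enzyme, was at 3.57, 3.75 and 3.77 FPKM with the antagomiR and 0.449, 0.534 and 1.94 FPKM with NC. Ube2l6, the conjugating enzyme, rose by 1.67 on the log2 scale and the ligase gene Trim25 by 1.26 (limma adjusted p = 0.0101 and 0.00472). Arih1, a ligase gene of ubiquitin and its relatives, was at 29.0, 29.1 and 28.8 FPKM with the antagomiR and 29.4, 29.2 and 27.0 FPKM with NC (log2 fold change 0.02, adjusted p = 0.77, with -0.04 under median-ratio scaling and quantile normalization). Herc6, which encodes the main ISG15 ligase in mouse and was named after its values were seen, lay below the filter, at 1.38, 1.43 and 1.51 FPKM with the antagomiR and 0.226, 0.193 and 0.468 FPKM with NC.

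Oligoadenylate synthetases sense double-stranded RNA and make a small nucleotide messenger that leads to the cutting of RNA. Oas1a (ENSRNOG00000001369, chr12:35669801-35680517) had 12.0, 12.4 and 11.6 FPKM in the antagomiR replicates, against 0.15, 1.08 and 4.09 FPKM in the NC replicates. The antagomiR libraries agreed within a coefficient of variation of 3.25%, while that of the NC libraries was 116%. The mean was 12.0 ± 0.39 FPKM with the antagomiR and 1.77 ± 2.06 FPKM with NC, and the difference on the log2 scale was 2.50 ± 0.47 (SE; limma adjusted p = 0.00858).

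Oasl (ENSRNOG00000001187, chr12:41682900-41695641) belongs to the same family, and its mouse counterpart Oasl1 lacks synthetase activity and represses translation of Irf7 messenger RNA. It had 5.96, 6.89 and 5.64 FPKM in the antagomiR replicates, against 0.104, 0.271 and 1.05 FPKM in the NC replicates. The lowest antagomiR library was 5.36 times the highest NC library. The mean was 6.16 ± 0.653 FPKM with the antagomiR and 0.475 ± 0.506 FPKM with NC, from 4, 13 and 41 fragments in the NC libraries. This gave a log2 fold change of 2.33 ± 0.22 (SE; limma adjusted p = 0.000504).

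The other synthetase genes and their partners formed a list of 13 symbols with 12 rows. Of these rows 6 were tested, 4 rose and 0 fell, where 17.5% of all tested genes rose and 9.21% fell. The list's median on the log2 scale was 1.75. Oas2 averaged under 1 FPKM in NC and passed the filter only through its antagomiR values, as did Uba7 among the ISG15 enzymes. Oas2 was at 2.55, 3.20 and 2.80 FPKM with the antagomiR and 0, 0.125 and 0.659 FPKM with NC. Oasl2 rose by 1.86, Oas1k (ENSRNOG00000033220) by 2.04 and Oas1i by 1.88 on the log2 scale (limma adjusted p = 0.00729, 0.0109 and 0.0137). Oas1i lost its call without antagomiR replicate 1 (adjusted p = 0.0543). Pde12, whose product degrades the messenger, had a log2 fold change of -0.07 (limma adjusted p = 0.528). A second gene listed as Oas1k, ENSRNOG00000062846, was at 0.0838 to 0.217 FPKM with the antagomiR and 0 to 0.063 FPKM with NC and was not tested. The Oas1 genes of rat are close copies of each other, so their separate values are uncertain.

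RSAD2, or viperin, is a radical SAM enzyme that makes a chain-terminating nucleotide against viral polymerases. Rsad2 (ENSRNOG00000007539, chr6:43047658-43059699) was the least abundant tested member, with 2.49, 4.09 and 3.21 FPKM in the antagomiR replicates, against 0.0204, 0.0821 and 0.424 FPKM in the NC replicates. The NC values correspond to 1, 5 and 21 fragments and the antagomiR values to 139, 253 and 184 fragments. The mean was 3.26 ± 0.801 FPKM with the antagomiR and 0.176 ± 0.218 FPKM with NC, a ratio of 18.6 and the widest of the members. On the log2(FPKM + 1) scale, which understates changes of low genes, its fold change was 1.86 ± 0.18 (SE; limma adjusted p = 0.000568). By limma voom on fragment counts it was 4.86 (adjusted p = 0.00181). The voom values of Oasl, Ifit3 and Oas1a were 4.18, 4.11 and 3.64, so the order of members by fold change depends on the scale.

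BST2, or tetherin, holds budding virus particles on the cell surface. Bst2 (ENSRNOG00000059900, chr16:18217407-18220979) had 139, 144 and 135 FPKM in the antagomiR replicates, against 7.46, 17.4 and 55.4 FPKM in the NC replicates. Among the risen members it was the most abundant in every library of the antagomiR group, at 139 ± 4.53 FPKM, against 26.7 ± 25.3 FPKM with NC (SD, n = 3 each). It rose by 2.77 ± 0.60 on the log2 scale (SE; limma adjusted p = 0.0146). Leaving out NC replicate 2 or antagomiR replicate 1, 2 or 3 ended the call at fold changes of 2.68, 2.77, 2.74 and 2.79 (adjusted p = 0.0557, 0.0529, 0.0535 and 0.051), whereas the value without NC replicate 3 was 3.49 (7.9e-05). Over the 16 alternative fits the adjusted p ran from 7.9e-05 to 0.0557.

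IFI27 is a small hydrophobic protein of mitochondria and the nuclear envelope. Ifi27 (ENSRNOG00000009263, chr6:122590472-122779294) had 392, 369 and 377 FPKM in the antagomiR replicates, against 111, 183 and 325 FPKM in the NC replicates. NC replicate 3 came near the antagomiR libraries, the lowest of which was 1.13 times as high. The mean was 379 ± 11.8 FPKM with the antagomiR and 206 ± 109 FPKM with NC. Ifi27 was not called, with a log2 fold change of 1.01 ± 0.34 (SE; limma adjusted p = 0.0666, 95% interval 0.21 to 1.81 before adjustment). It was called without NC replicate 3, at 1.41 (adjusted p = 0.000847), and under quantile normalization, at 1.03 (adjusted p = 0.042), and the adjusted p over its 16 alternatives ran from 0.000847 to 0.166.

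The listed span of Ifi27 also contains the related gene Ifi27l2b, from 122598872 to 122600360, as well as Ppp4r4 and Serpina10. Ifi27l2b, named after its values were seen, was at 314, 283 and 289.9 FPKM with the antagomiR and 49.99, 94.5 and 158 FPKM with NC, and rose by 1.69 on the log2 scale (limma adjusted p = 0.0137). The separate values of the pair may be uncertain because the spans overlap, and whether the exons overlap was not examined.

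**Figure D2:**
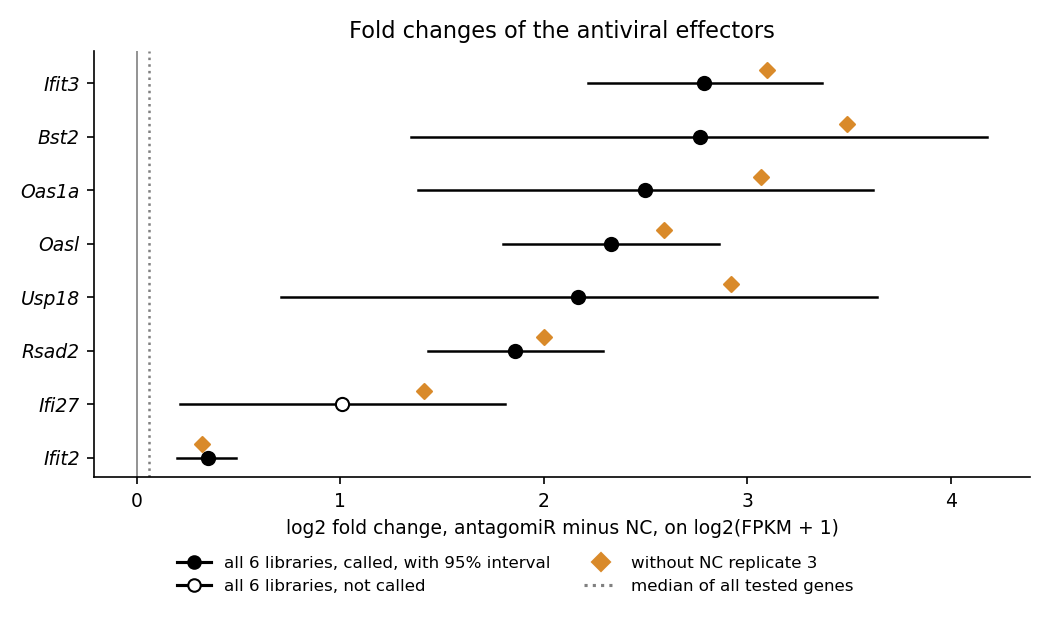
Log2 fold change of each tested member (antagomiR minus NC on log2(FPKM + 1)) with its 95% interval before adjustment (circles, open where not called) and the value without NC replicate 3 (diamonds). Leaving out that library gave higher values for 7 members, for instance 1.41 for Ifi27 where all libraries gave 1.01. For Ifit2 it gave 0.32 where all libraries gave 0.35. That library was the highest NC library for those 7 members and the lowest for Ifit2, so these directions were fixed in advance.

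NC replicate 3 stood apart from the other NC libraries over the whole table as well as for these genes. On the first principal component of all tested genes, which held 77.2% of the variance, the antagomiR libraries lay at -27.3 to -26.3, against 36.1, 30.9 and 13.8 for NC replicates 1, 2 and 3. For the members, NC replicate 3 was the highest NC library for 7 of the 8 tested members, and in those same 7 NC replicate 1 was the lowest. Over all tested genes 25% had NC replicate 1 lowest and NC replicate 3 highest. NC replicate 3 was 8.28 times the mean of NC replicates 1 and 2 for Rsad2, 7.42 times for Usp18, 6.63 times for Oas1a, 5.61 times for Oasl, 4.45 times for Bst2, 4.32 times for Ifit3 and 2.21 times for Ifi27. For Ifit2 it was the lowest NC library, at 0.943 times that mean. Coefficients of variation ran from 3.12% to 24.6% in the antagomiR group, and in the NC group from 4.08% for Ifit2 to 124% for Rsad2. Over all tested genes the median coefficient was 5.14% with the antagomiR and 9.66% with NC.

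The position of NC replicate 3 was expressed as the share of the way from the mean of NC replicates 1 and 2 to the antagomiR mean on log2(FPKM + 1). It was 84.2% for Ifi27, 77.0% for Usp18, 62.3% for Bst2 and 55.9% for Oas1a. For Oasl, Ifit3 and Rsad2 it was 30.6%, 29.6% and 21.9%, and for Ifit2 it was -24.7%. The median over all 2109 risen genes was 18.0%, with quartiles of -9.74% and 41.5%. Those genes were called with NC replicate 3 included, which makes genes with a high position harder to call, and Ifi27 itself was not called. This median is thus not an unbiased reference for the members. With a pseudocount of 0.1, an alternative chosen after seeing the data, the low genes moved most, to 45.9% for Oasl, 40.9% for Ifit3 and 40.7% for Rsad2.

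NC replicate 3 was the highest NC library for 7 of the 8 tested members, so leaving it out raises their fold changes by construction. Ifit3, Oasl and Rsad2 also passed the filter only through their antagomiR values. Within these limits, all 8 tested members rose without NC replicate 3, where 26.5% of tested genes rose. The antagomiR mean was then 63.6 times the NC mean for Rsad2, 32.9 times for Oasl, 29.3 times for Ifit3, 19.5 times for Oas1a, 12.4 times for Usp18 and 11.2 times for Bst2. For Ifi27 and Ifit2 it was 2.58 and 1.26 times. Against NC replicate 3 alone, the antagomiR mean was 7.69 times as high for Rsad2, 6.80 for Ifit3, 5.86 for Oasl, 2.94 for Oas1a, 2.52 for Bst2, 1.67 for Usp18, 1.34 for Ifit2 and 1.17 for Ifi27.

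Leukocyte transcripts differed between libraries in a similar order, and their part in these results was not tested. The summed level of 15 leukocyte and macrophage markers was 946 to 1050 FPKM in the antagomiR libraries, against 141, 205 and 723 FPKM in NC replicates 1, 2 and 3. Lyz2 was the largest part of the sum, at 484 to 566 FPKM, against 62.7, 105 and 389.6 FPKM. Of 14 tested markers 6 rose with all libraries and 14 without NC replicate 3, where 17.5% and 26.5% of all tested genes rose. All 14 were highest in NC replicate 3 among the NC libraries, so leaving that library out raises their fold changes by construction. NC replicate 3 held 72.4% of the antagomiR mean of that sum. Per gene this share ran from 19.3% for Adgre1 to 200.3% for Mrc1 among the markers, with a median of 83.4%. Among the members it ran from 13.0% for Rsad2 to 85.7% for Ifi27, with a median of 36.9%. Cd163 was at 0 in 5 of the 6 libraries. In bulk RNA, fewer cells of a type and less RNA per cell cannot be told apart, and the members' transcripts are not assigned to a cell type.

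**Figure D3:**
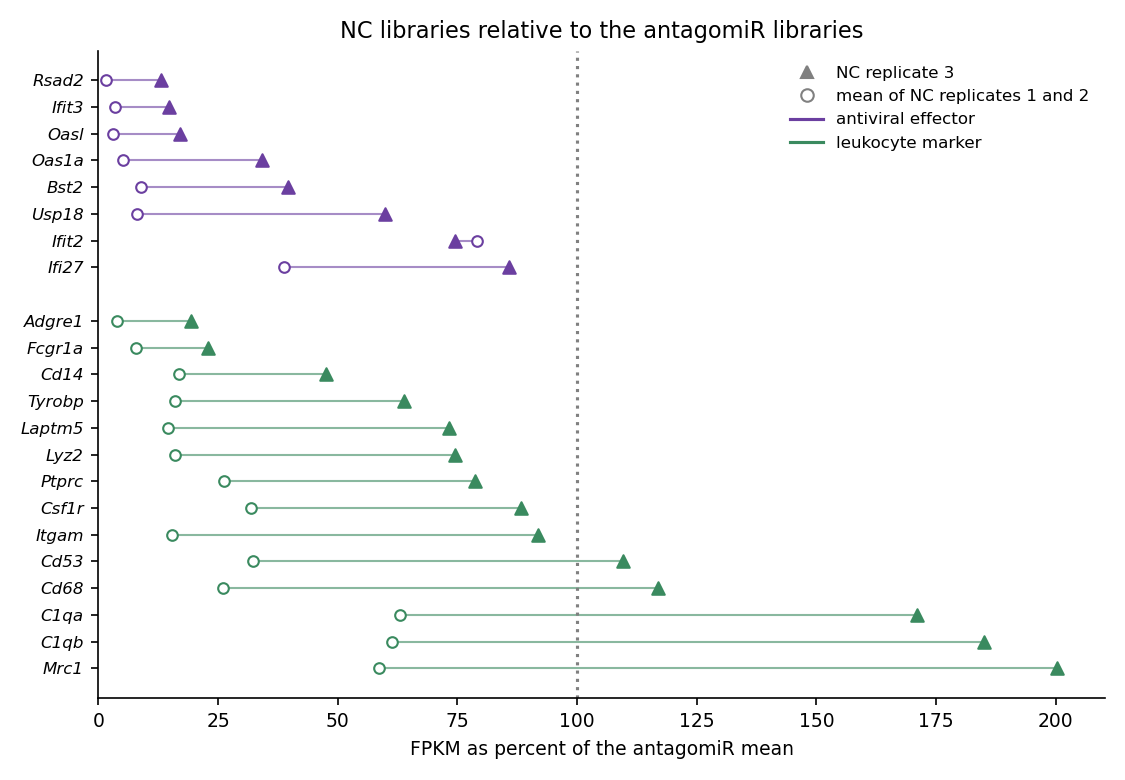
FPKM of NC replicate 3 (triangles) and the mean of NC replicates 1 and 2 (open circles) as a percent of the antagomiR mean, for the 8 tested members (purple) and 14 tested leukocyte markers (green). Members lie between 13.0% and 85.7% in NC replicate 3, while 5 markers, Cd53, Cd68, C1qa, C1qb and Mrc1, lie above the antagomiR mean (dotted line).

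Other markers described the cultures, and for comparison 17.5% of all tested genes rose and 9.21% fell. Of 9 fibroblast markers 5 rose, Pdgfra, Dcn, Lum, Postn and Tcf21, with ratios of means from 1.40 for Tcf21 to 3.22 for Pdgfra, and 2 fell, Col1a2 and Thy1. Their sum, of which Col1a1, Col1a2 and Col3a1 make up most, was 10700 to 10900 FPKM with the antagomiR and 11300 to 11400 FPKM with NC. The part of these shifts in the members' values was not tested. The cardiomyocyte list summed to 296 to 356 FPKM with the antagomiR and 389 to 431 FPKM with NC. Most of that sum was Tnnt2, at 227 to 276 FPKM and 323 to 364 FPKM. Tnnt2 fell and Myh7 rose (log2 fold change -0.42 and 0.39, limma adjusted p = 0.0127 and 0.0168), and no other tested gene of that list was called. Endothelial markers summed to 2.9 to 3.18 FPKM with the antagomiR and 1.77 to 2.14 FPKM with NC. Most of this was Tek, at 2.46 to 2.65 FPKM and 1.57 to 2.02 FPKM, which rose by 0.32 on the log2 scale (limma adjusted p = 0.0417). Smooth muscle and pericyte markers summed to 32.6 to 33.6 FPKM with the antagomiR and 50.04 to 55.5 FPKM with NC. All 3 tested genes of that list, Myh11, Cspg4 and Notch3, fell (log2 fold change -0.65, -0.51 and -0.67, limma adjusted p = 0.0078, 0.002 and 0.000195). Of the markers of plasmacytoid dendritic cells, which make much interferon, Siglech and Ly6d were listed at 0 in every library, and Bst2 is itself on that list. The other two were not called. Irf8 was at 5.14, 4.28 and 4.30 FPKM with the antagomiR and 1.14, 1.69 and 5.14 FPKM with NC, with NC replicate 3 again the highest NC library, and Tcf4 was at 27.0 to 28.9 FPKM and 23.3 to 26.6 FPKM. Library totals recovered from the FPKM values ran from 22215475 to 24622667 fragments with the antagomiR and from 19472409 to 24248843 with NC. The level of 0.122 to 0.154 FPKM corresponds to 3 fragments on a gene of 1 kb and is a floor for counting error only.

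Levels of the interferon genes themselves could not be read from the table for the most part. Of 12 symbols of interferon ligands 8 had rows, and 6 of these were listed at 0 in every library. Ribosomal protein genes had 3 rows at 0 as well, though whether those are silent copies was not examined. A listed 0 is not read here as proof that a gene was silent. Whether these 6 rows overlap other genes was not examined. Ifnb1, which encodes interferon beta, was at 0.0811 FPKM in antagomiR replicate 1, from 1 fragment, and listed at 0 in the other 5 libraries. Ifne, an epithelial type I interferon gene, was at 0.259, 0 and 0.126 FPKM with the antagomiR and 0.259, 0.119 and 0.365 FPKM with NC. None of the 8 passed the filter, so no difference between groups was tested.

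Genes for interferon receptors and signal transduction were higher with the antagomiR. Of 15 symbols 12 were tested, 11 rose and 0 fell, the list's median was 0.90 on the log2 scale, and 11 rose without NC replicate 3. Over all tested genes the shares that rose were 17.5% with all libraries and 26.5% without NC replicate 3. Socs1 averaged under 1 FPKM in NC and passed the filter only through its antagomiR values. Jak2, the kinase gene of the interferon gamma receptor, was at 15.9, 16.9 and 17.8 FPKM with the antagomiR and 5.36, 5.67 and 6.03 FPKM with NC. Its NC libraries lay close together, including replicate 3. Ifngr1 and Ifngr2, the receptor chains for interferon gamma, rose by 1.40 and 0.66, and Ifnar1, a chain of the type I receptor, by 0.48 on the log2 scale (limma adjusted p = 0.000292, 0.00121 and 0.00364). The feedback inhibitors Socs3 and Socs1 rose by 1.67 and 1.15 (adjusted p = 0.000138 and 0.00096).

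Stat2 was at 31.2, 31.5 and 28.4 FPKM with the antagomiR and 9.91, 10.5 and 18.0 FPKM with NC, and rose by 1.23 (limma adjusted p = 0.00467). Irf9 lay below the filter, at 0.339, 0.393 and 0.165 FPKM with the antagomiR and 0.166, 0.133 and 0.136 FPKM with NC. Irf7, a transcription factor gene induced by interferon and named after its values were seen, had the largest fold change of that list. It was at 87.9, 89.0 and 80.9 FPKM with the antagomiR, against 2.79, 8.65 and 23.3 FPKM with NC (log2 fold change 3.18, adjusted p = 0.00765).

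Of 40 symbols of other interferon-induced antiviral genes 33 were tested, 30 rose and 0 fell, and 30 rose without NC replicate 3. The shares of all tested genes that rose were 17.5% with all libraries and 26.5% without NC replicate 3. The list's median was 1.06 on the log2 scale. In this list 4 of the risen genes averaged under 1 FPKM in NC, Mx1, Ifi44l, Cmpk2 and Cxcl10. They passed the filter only through their antagomiR values. Mx1, a dynamin-like GTPase gene, was at 9.14, 11.1 and 10.2 FPKM with the antagomiR and 0.0875, 0.509 and 1.58 FPKM with NC. Ifitm3 and Ifitm1, whose products block entry of viruses into cells, rose by 1.55 and 1.54 on the log2 scale (limma adjusted p = 0.000866 and 0.000812). Ifitm3 was the most abundant gene of that list in the antagomiR libraries, at 573, 520 and 549 FPKM, against 148, 177 and 245 FPKM with NC. Eif2ak2, the gene of the RNA-activated kinase PKR, rose by 1.05, the zinc-finger antiviral gene Zc3hav1 by 0.65 and Nmi, which encodes a STAT-interacting protein, by 0.77 (adjusted p = 0.000958, 0.000632 and 0.00106). Ifit1bl, Isg20 and Apobec1, singled out as those not called, had log2 fold changes of -0.05, -0.03 and -0.21 (adjusted p = 0.797, 0.766 and 0.508).

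**Figure D4:**
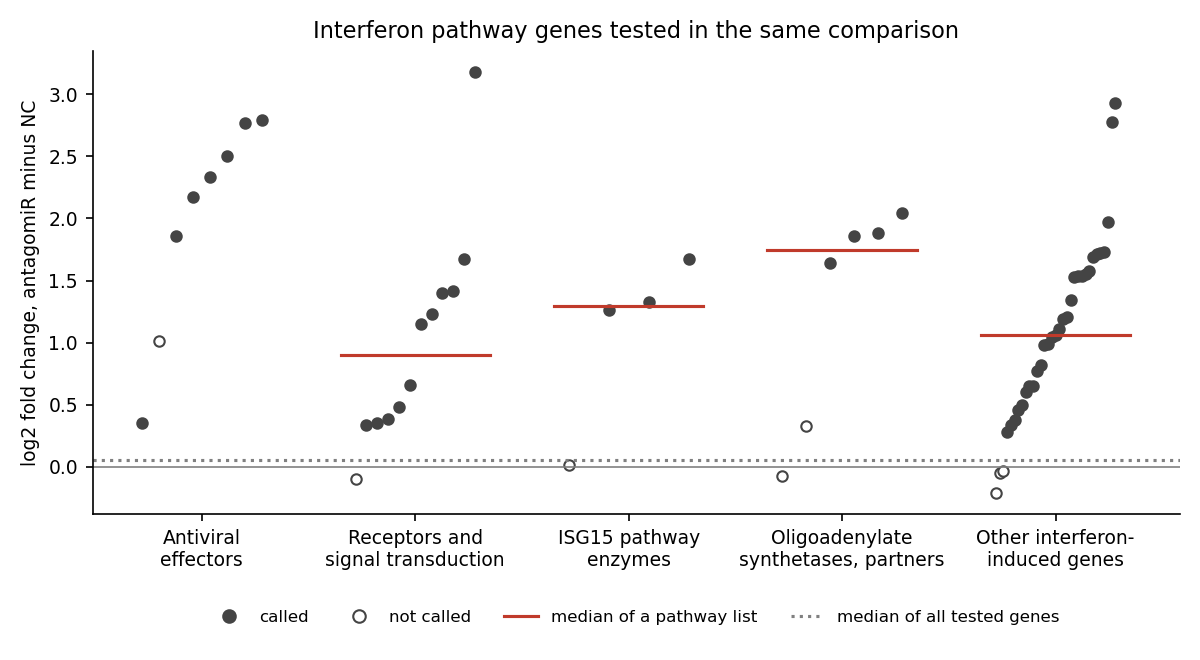
Log2 fold change (antagomiR minus NC) of each tested gene, in columns for the members and for the pathway lists with tested genes, filled where called. Red lines mark list medians of 0.90, 1.30, 1.75 and 1.06, and the dotted line marks the median of all tested genes, 0.06.

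Genes most like the members in their profile over the 6 libraries were found by scaling each gene from its lowest library at 0 to its highest at 1. On that scale the members averaged 0.94, 0.99 and 0.91 in the antagomiR replicates and 0.03, 0.18 and 0.47 in the NC replicates. Called genes with the smallest mean absolute differences from this profile included Gsdmd at 0.020, Fcgr3a at 0.022, AC135826.1 at 0.023 and Parp14 at 0.024. Gsdmd, the gene of the pore-forming protein of pyroptosis, was at 49.8, 50.8 and 48.4 FPKM with the antagomiR and 27.6, 31.6 and 36.9 FPKM with NC. Fcgr3a, an antibody receptor gene of leukocytes, was at 5.31, 5.81 and 5.02 FPKM with the antagomiR and 0.083, 0.533 and 1.35 FPKM with NC. Among the members Oasl, at 0.051, and Oas1a, at 0.058, were closest to the mean profile, and Ifit2, at 0.177, was farthest.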

How the data were processed

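Per the labels' protocols, libraries of polyadenylated RNA were read from both ends over 150 bp. The authors deposited FPKM values, with 1 column per library, and columns were assigned by the names in the labels, with 0 columns left unassigned. Tools listed in the submitters' processing notes are edgeR, HISAT2, HTSeq, cutadapt and FastQC, and their build is mRatBN7.2. Roles of these tools, annotation release and strand setting are not given in the sources used here.

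Fragment counts and library totals were recovered from the FPKM values, since a gene length could be found that made all values whole within 0.01 for 100% of 20134 genes above 0. Replicates differed by a chi-square per degree of freedom of 3.53 to 6.02 among antagomiR libraries, 6.73 between NC replicates 1 and 2, and 31.61 and 23.49 between these and NC replicate 3, so none was treated as a repeat. Differences were tested in R 4.3.3 with limma 3.58.1 (lmFit, eBayes with a trend, two-sided), applied to log2(FPKM + 1) of genes that averaged 1 FPKM or more. The test was run on simulated data with the same spread in both groups and no outlying library. That check does not cover the wide spread of the NC group seen here. Fold changes are antagomiR minus NC. Alternatives were other pseudocounts, filters, scalings and variance settings, a replicate block, limma voom on fragment counts with median-ratio library sizes and leaving out each library.

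Members, gene lists and tests were chosen with earlier results of these data known. Named genes were the members, up to 6 tested genes with the smallest p from each pathway list, Stat2, Irf9 and the 5 genes most like the members; other genes outside the marker lists are marked where they appear. A few genes that this rule names are not reported here.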

Additional observations from a re-analysis of the deposited data

How the results depend on the processing

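The count of risen members, 7, lay between 5 and 8 over 16 alternatives and that of fallen members stayed at 0. Over pairs of a named gene and an alternative, 14 lost the call, 3 gained it, 545 showed neither and 4 changed sign, all 4 for Arih1, at -0.04 under median-ratio scaling, quantile normalization and voom, and between -0.01 and 0.05 when 1 library was left out. Usp18 lost its call with pseudocounts of 0.1 and 0.01, no filter and robust variances (adjusted p = 0.0632, 0.0694, 0.0829 and 0.0799). Quantile normalization gave 1869 fallen genes over the whole table, where the deposited scaling gave 1107, and 1 fallen gene among receptors and signal transduction, Tyk2. Leaving out 1 library gave 1216 to 3185 risen genes, the highest without NC replicate 3, and 667 to 1677 fallen genes. Why these counts differ was not tested. Libraries with equal replicate numbers had deviations from their group means that correlated at -0.16, -0.06 and -0.04, and unequal numbers gave -0.06 to 0.13. These values gave no sign of pairing by number, but with 3 libraries per group they cannot exclude it. With the replicate block 1571 genes and 7 members rose. Depth limits the NC values of Rsad2, Oasl and Oas1a most, with 1, 4 and 5 fragments in NC replicate 1.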
